A study of Mus musculus with 8 samples.

Results

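The arcuate nucleus (Arc) and the dorsomedial nucleus (DMH) of the mouse hypothalamus were compared on 4 arrays, 2 of each nucleus, out of the 8 arrays of the study. The arrays were chosen by their labels, which name the nucleus and the replicate. The other arrays carried the ventromedial nucleus (VMH) and the lateral hypothalamus (LH), and served to show the levels of the same genes in these nuclei and, in 1 alternative fit, to estimate the spread. Of the 55681 probes on the array, 28120 had a signal well above background on each array of at least 1 of these nuclei and were tested, and 16843 of these carried the symbol of 1 of 12888 genes.

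Both nuclei came from female mice that were 3 months old, of the strain C57BL/6 in the labels and C57BL/6J in the methods, and the labels name no transgene and no treatment. The study took the tissue from 2 animals by laser microdissection, amplified the RNA as a whole transcriptome, and labelled it in 1 color, so each array reports a mixture of all cells within the outline of a nucleus. In such a mixture, fewer cells of a type and less RNA per cell cannot be told apart. The labels do not state which array came from which animal, so the p-values below measure the spread between these arrays.

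The Arc lies at the base of the third ventricle beside the median eminence. It holds neurons that sense leptin, ghrelin, and sex steroids, among them the *Agrp* and *Npy* neurons that drive feeding, the *Pomc* neurons that restrain it, and neurons that control pituitary hormones. The third ventricle at this level is lined by tanycytes, which are radial glia that handle thyroid hormone and nutrients. The DMH lies above the Arc and takes part in body temperature, feeding rhythms, wakefulness, and stress responses, and it borders the LH, where the orexin (*Hcrt*) and melanin-concentrating hormone (*Pmch*) neurons lie. The study profiled these nuclei to find genes selective for the DMH.

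The promoters of 6 genes on which the comparison turned are shown here as the 300 bases from 250 bases before to 50 bases after the annotated start. They are given 5′ to 3′ on the strand of the gene, from RefSeq on GRCm38.p6, which was used only for these windows and for gene names. *Npy*, *Pomc*, and *Kiss1* were higher in the Arc, and *Hcrt*, *Npvf*, and *Prdm13* were higher in the DMH. Capitals mark matches on either strand to AAGGTCA (the binding element of NR5A receptors), TATAAA (the TATA box), CAAGTG (an element of NK2 homeobox factors), or TTCNNNGAA (a STAT element), which did not overlap one another in these windows.
*Npy* (chr6:49822460-49822759, plus strand): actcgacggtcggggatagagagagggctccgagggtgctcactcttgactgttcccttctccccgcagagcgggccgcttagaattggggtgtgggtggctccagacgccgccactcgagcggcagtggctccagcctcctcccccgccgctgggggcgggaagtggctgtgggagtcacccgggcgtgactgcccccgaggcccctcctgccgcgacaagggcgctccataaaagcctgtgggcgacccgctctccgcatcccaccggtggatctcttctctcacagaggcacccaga
*Pomc* (chr12:3954695-3954994, plus strand): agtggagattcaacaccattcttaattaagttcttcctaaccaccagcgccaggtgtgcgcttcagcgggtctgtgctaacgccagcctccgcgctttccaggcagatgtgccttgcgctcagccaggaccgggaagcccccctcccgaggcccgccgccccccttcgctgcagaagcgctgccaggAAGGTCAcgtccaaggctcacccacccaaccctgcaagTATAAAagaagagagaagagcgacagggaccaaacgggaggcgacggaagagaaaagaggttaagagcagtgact
*Kiss1* (chr1:133326962-133327261, plus strand): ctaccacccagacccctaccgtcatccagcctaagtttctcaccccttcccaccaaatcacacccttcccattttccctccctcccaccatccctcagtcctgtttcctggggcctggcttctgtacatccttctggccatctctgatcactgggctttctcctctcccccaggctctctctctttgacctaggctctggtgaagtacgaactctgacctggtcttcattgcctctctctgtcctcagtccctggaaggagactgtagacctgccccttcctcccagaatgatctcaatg
*Hcrt* (chr11:100762882-100763181, minus strand): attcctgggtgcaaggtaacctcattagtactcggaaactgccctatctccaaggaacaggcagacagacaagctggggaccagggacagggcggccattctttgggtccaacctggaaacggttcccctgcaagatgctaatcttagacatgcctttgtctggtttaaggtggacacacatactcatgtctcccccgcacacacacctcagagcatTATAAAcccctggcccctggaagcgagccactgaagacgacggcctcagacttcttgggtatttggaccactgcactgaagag
*Npvf* (chr6:50654396-50654695, minus strand): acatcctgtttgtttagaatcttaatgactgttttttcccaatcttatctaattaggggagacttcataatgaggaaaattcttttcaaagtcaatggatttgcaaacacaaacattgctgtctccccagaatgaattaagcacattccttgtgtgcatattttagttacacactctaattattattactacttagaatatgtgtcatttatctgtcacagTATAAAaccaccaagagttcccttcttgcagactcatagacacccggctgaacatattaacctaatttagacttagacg
*Prdm13* (chr4:21685914-21686213, minus strand): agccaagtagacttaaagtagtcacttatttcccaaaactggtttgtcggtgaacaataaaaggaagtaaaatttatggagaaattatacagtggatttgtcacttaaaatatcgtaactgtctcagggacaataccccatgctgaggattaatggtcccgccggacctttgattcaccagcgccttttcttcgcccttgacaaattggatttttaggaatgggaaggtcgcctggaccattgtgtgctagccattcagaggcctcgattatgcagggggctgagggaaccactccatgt
The *Pomc* window held AAGGTCA at base 188 and TATAAA at base 226, counted from its 5′ end. TATAAA stood at base 218 in *Hcrt* and at base 222 in *Npvf*. No match lay in the windows of *Npy*, *Kiss1*, and *Prdm13*, which says only that these letters are not there. Of all 32851 promoter windows of this length, 4.72% held AAGGTCA, 13.6% held TATAAA, 13.6% held CAAGTG, and 8.3% held TTCNNNGAA.

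The signals are fluorescence intensities after background subtraction, divided by the 75th percentile of each array and brought back to a common level, and they carry no unit. Before this step the 75th percentile was 815 and 867 on Arc1 and Arc2 and 1150 and 1196 on DMH1 and DMH2. The lowest scaled signal called well above background on these arrays lay between 94.3 and 127. Across 28110 probes, log2 signals correlated with r = 0.982 between the Arc arrays, 0.973 between the DMH arrays, and 0.953 to 0.959 between arrays of different nuclei. No spot was saturated.

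The first question was how far the nuclei differed. With limma and an adjusted p under 0.05, 261 of the 28120 probes (0.928%) were higher in the Arc and 338 (1.2%) were higher in the DMH, together 2.13%. The median absolute log2 difference was 2.16 among the former and 1.86 among the latter, and the smallest were 1.15 and 1.14, so that only differences above about this size were called with 2 arrays a side. In 105 of the Arc-higher probes neither DMH array was well above background, and in 155 of the DMH-higher probes neither Arc array was, so the ratio of these has only a lower bound. For others, such as *Rax*, *Six3*, *Slc6a3*, and *Greb1*, only 1 DMH array was well above background. Their differences are given below as fitted and rest in part on a signal near background. Without the scaling between arrays, 274 probes were higher in the Arc and 3315 in the DMH, and the share of calls on the Arc side was 7.63% in place of 43.6%. The median log2 difference of all tested probes then lay at -0.46 in place of 0.02, and all differences here are relative to the scaled level. With 1 probe per gene, 175 genes (1.36%) were higher in the Arc and 185 (1.44%) were higher in the DMH, together 2.79%, which is the background against which the gene groups are read.

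**Figure D1:**
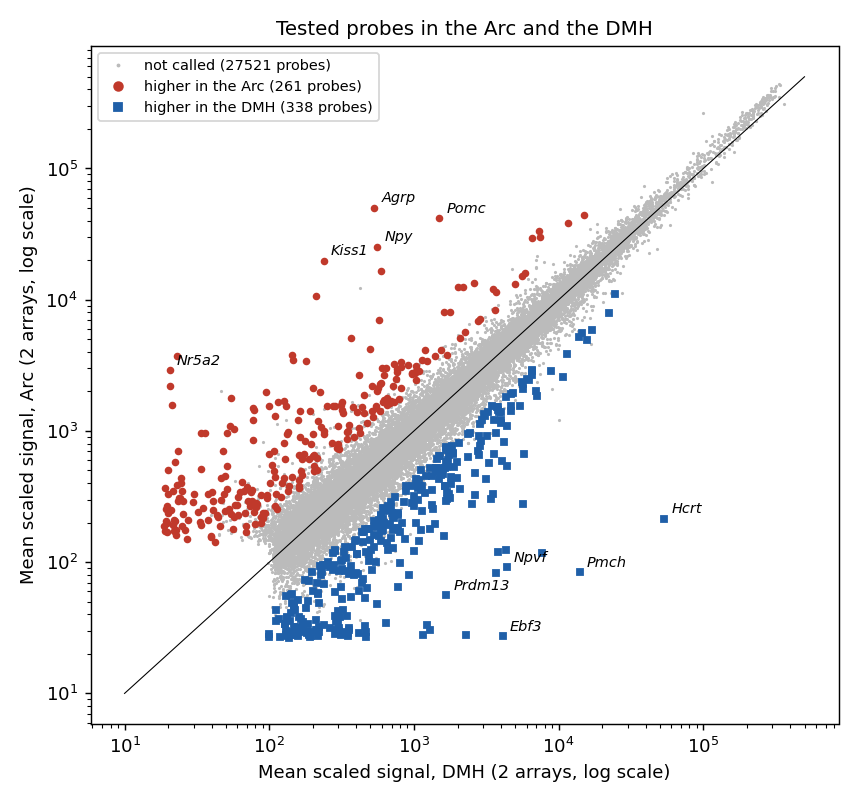
Mean scaled signal of each tested probe in the DMH (x axis) and in the Arc (y axis), both on log scales without a unit, with the 261 probes higher in the Arc as circles, the 338 higher in the DMH as squares, and the line of equal signal. *Agrp*, *Npy*, *Pomc*, and *Kiss1* combined a high Arc signal with a large difference, *Hcrt* did so in the DMH.

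The 12 genes with the largest differences in the Arc encode neuropeptides, transcription factors, and some other proteins. *Agrp*, the agouti-related peptide that blocks melanocortin receptors, had signals of 53020 and 47181 in the Arc and of 531 and 529 in the DMH (log2 difference 6.56 ± 0.20 SE, adjusted p = 0.00045). *Npy*, neuropeptide Y, which the same neurons make, had signals of 26974 and 23813 in the Arc and of 559 and 561 in the DMH (5.50 ± 0.20, adjusted p = 0.000524). *Pomc*, the precursor of the anorexigenic hormone α-MSH, reached 40403 and 43108 in the Arc and 1554 and 1447 in the DMH (4.80 ± 0.19, adjusted p = 0.000536). In these genes the arrays of a nucleus lay close together and the nuclei were far apart.

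*Kiss1*, the peptide that drives gonadotropin-releasing hormone neurons, had signals of 23170 and 16617 in the Arc and 264 and 210 in the DMH (6.38 ± 0.25, adjusted p = 0.000535). A dimmer probe of *Kiss1* had 336 and 427 in the Arc and 147 and 127 in the DMH (1.47 ± 0.22, adjusted p = 0.0372), and this smaller difference was lost without any 1 of the 4 arrays. *Crabp1*, a carrier of retinoic acid in the cytoplasm, had signals of 9879 and 11601 in the Arc and 232 and 185 in the DMH (5.69 ± 0.22, adjusted p = 0.000535). *Tbx3*, a T-box factor of arcuate neurons, had 16146 and 16919 in the Arc and 477 and 702 in the DMH (4.84 ± 0.25, adjusted p = 0.00122).

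For the probes given below with a lower bound, the DMH was not well above background on either array. The nuclear receptor *Nr5a2* had signals of 2548 and 3248 in the Arc and 20.5 on both DMH arrays, at least 30.5-fold higher in the Arc (adjusted p = 0.00045). *Nr4a2*, a nuclear receptor of dopamine neurons, had 1867 and 1727 in the Arc and 57.7 and 50.8 in the DMH, at least 19.0-fold higher (adjusted p = 0.000535). A 2nd probe of *Nr4a2*, brighter on average, was uneven, with 1292 and 2687 in the Arc and 150 and 41.2 in the DMH, and its call (adjusted p = 0.0283) held in 2 of the 4 fits without 1 array. *Socs3*, the inhibitor of leptin signalling, had 938 and 1000 in the Arc and 48.6 and 23.2 in the DMH, at least 10.3-fold higher (adjusted p = 0.0034). The secreted peptide *Prok2* was less even, with 599 and 1319 in the Arc and 44.4 and 23.2 in the DMH, at least 9.42-fold higher (adjusted p = 0.00895).

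Both remaining genes of the group differed widely between the Arc arrays. *Oxt*, the oxytocin precursor, had signals of 6560 and 848 in the Arc and 19.0 and 27.0 in the DMH, at least 24.99-fold higher (adjusted p = 0.0231). It was also 25.4 and 1242 in the VMH and 109 and 8332 in the LH, so that 1 array of each of these nuclei was high. *Smoc2*, a matrix protein, had 429 and 3988 in the Arc and 20.01 and 20.9 in the DMH, at least 13.9-fold higher (adjusted p = 0.0412). The call of *Oxt* was lost without DMH1 (adjusted p = 0.1) or DMH2 (0.0704), that of *Smoc2* without DMH1 (0.145) or DMH2 (0.122), and the other 10 genes were called without any 1 array by the probes given first. With all 8 arrays in the fit *Oxt* was not called (adjusted p = 0.343), and with normexp background correction *Smoc2* was not (0.0651).

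**Figure D2:**
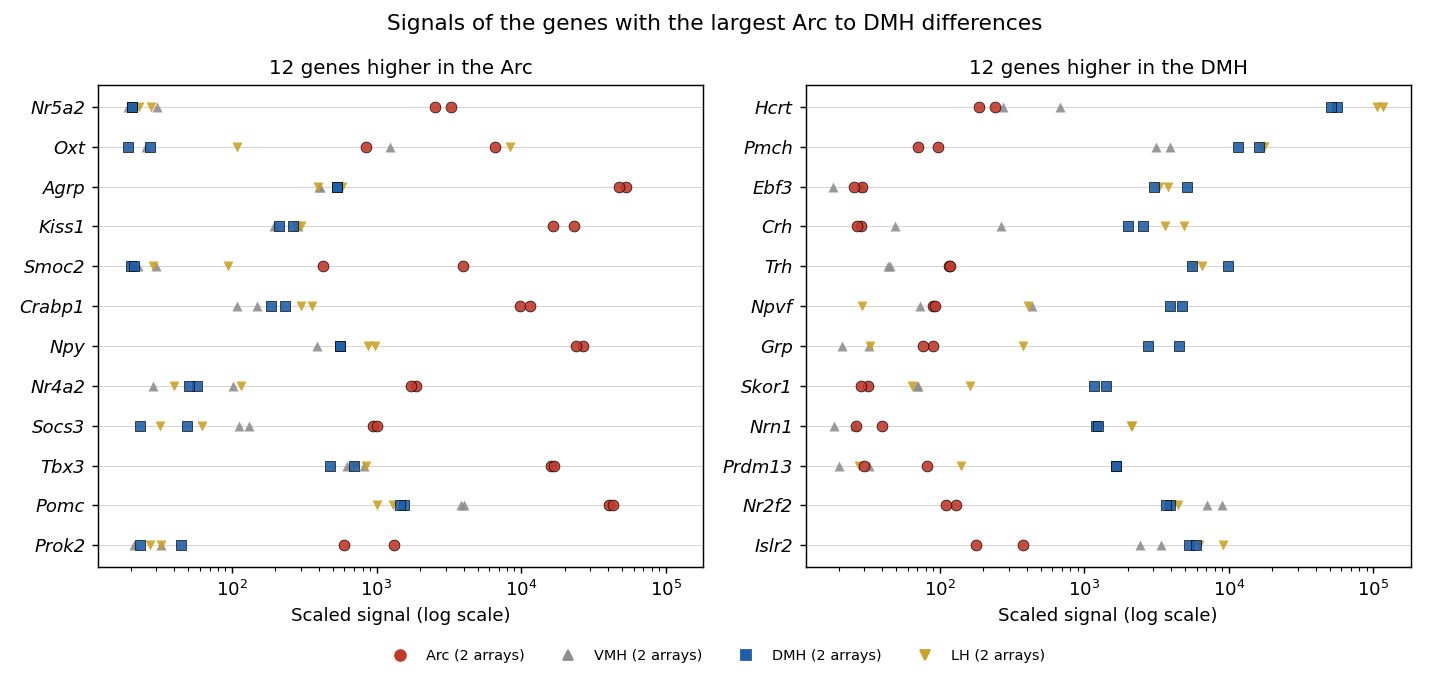
Scaled signal (x axis, log scale, without a unit) of the 12 genes with the largest difference in each direction, 1 point per array, with shape and color for the nucleus. In the left panel the Arc arrays lay above both DMH arrays for every gene, with *Oxt* and *Smoc2* spread over the widest range. In the right panel both LH arrays lay above both DMH arrays for *Hcrt*, *Pmch*, *Crh*, *Nrn1*, *Nr2f2*, and *Islr2* and well below them for *Npvf*, *Grp*, *Skor1*, and *Prdm13*.

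In the DMH, both largest fitted differences belonged to neuropeptides, and 6 of the 12 genes encode peptides. In both directions, the rank of a gene given with a lower bound depends on signals near background and is not exact. *Hcrt*, the orexin precursor, which keeps animals awake, had signals of 55940 and 51283 in the DMH and 188 and 241 in the Arc (log2 difference -7.97 ± 0.22, adjusted p = 0.00045). *Pmch*, the precursor of melanin-concentrating hormone, had 16253 and 11631 in the DMH and 97.5 and 71.1 in the Arc, at least 122-fold above the Arc (adjusted p = 0.000524). In the LH these genes stood at 105970 and 116750 and at 17650 and 17005, respectively. *Hcrt* was thus higher in the LH than in the DMH on every array.

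*Hcrt* and *Pmch* are also markers of LH neurons. The list of 6 such markers, most of whose sum in the DMH and LH comes from these genes, had a summed signal of 65357 to 73537 in the DMH, 131330 to 143720 in the LH, 3813 to 4895 in the VMH, and 594 to 838 in the Arc, and 4 of the 6 (*Hcrt*, *Pmch*, *Nts*, and *Lhx9*) were called higher in the DMH. *Pvalb*, parvalbumin, which marks a set of LH neurons, stood at 430 and 429 in the DMH, 285 and 88.5 in the Arc, and 5854 and 7396 in the LH, and did not pass the test between the Arc and the DMH (adjusted p = 0.291). The study also measured markers of neighbouring nuclei in its dissected tissue by RT-PCR, which was not analysed here, and the part of LH cells in these DMH arrays was not tested.

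*Trh*, thyrotropin-releasing hormone, had signals of 5586 and 9818 in the DMH and 116 and 119 in the Arc, at least 61.1-fold higher (adjusted p = 0.00122). *Crh*, corticotropin-releasing hormone, had 2026 and 2543 in the DMH and 28.7 and 26.8 in the Arc, at least 20.1-fold higher (adjusted p = 0.000524). In the LH, *Trh* had 6519 and 5690, within the range of the DMH arrays, and *Crh* had 4931 and 3623, above both of them. Both peptides were much lower in the VMH, with 45.5 and 43.8 for *Trh* and 265 and 49.4 for *Crh*.

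*Npvf*, the precursor of the RFamide peptides that restrain gonadotropin release, had 3943 and 4786 in the DMH and 90.3 and 93.3 in the Arc, at least 38.4-fold higher (adjusted p = 0.000524). *Grp*, gastrin-releasing peptide, had 2773 and 4548 in the DMH and 90.3 and 76.3 in the Arc, at least 31.4-fold higher (adjusted p = 0.00123). Unlike the peptides above, both were low in the other nuclei, although unevenly. *Npvf* was 438 and 72.8 in the VMH and 406 and 28.9 in the LH, and *Grp* was 32.6 and 21.1 in the VMH and 376 and 32.8 in the LH. When all 8 arrays shared 1 estimate of the spread, the Arc to DMH difference of *Npvf* (adjusted p = 0.107) and of *Grp* (0.0593) was no longer called.

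The regulators of transcription in this group fell into a set seen mainly in the DMH and a set shared with other nuclei. *Prdm13*, a zinc finger regulator of neuron identity, had signals of 1661 and 1667 in the DMH and 82.3 and 29.8 in the Arc, at least 14.7-fold higher (adjusted p = 0.00737). *Skor1*, a transcriptional corepressor, had 1415 and 1172 in the DMH and 32.2 and 28.8 in the Arc, at least 11.4-fold higher (adjusted p = 0.000535), and at least 10.3-fold higher by its other probe. In the VMH and LH both genes stayed between 20.1 and 162, the range of the brighter *Skor1* probe and of *Prdm13*.

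*Ebf3*, a helix-loop-helix factor, had signals of 3043 and 5175 in the DMH, 28.9 and 25.6 in the Arc, and 3287 and 3818 in the LH, at least 35.1-fold above the Arc (adjusted p = 0.000536). *Nr2f2*, an orphan nuclear receptor, had 3927 and 3706 in the DMH, 131 and 110 in the Arc, and 9000 and 7114 in the VMH, at least 29.6-fold above the Arc (adjusted p = 0.000536). *Ebf3* was also at background in the VMH, with 29.1 and 18.3, so that it was shared by the DMH and the LH, whereas the Arc was the only 1 of the 4 nuclei in which *Nr2f2* was not well above background.

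The last genes of the group act at the neuron surface. *Nrn1*, neuritin, which promotes neurite growth, had signals of 1208 and 1245 in the DMH and 40.0 and 26.4 in the Arc, at least 10.8-fold higher (adjusted p = 0.00118). *Islr2*, a membrane protein of growing axons, had 5328 and 5946 in the DMH and 178 and 377 in the Arc (-4.44 ± 0.37, adjusted p = 0.00526). All 12 genes of this group were called higher in the DMH without any 1 of the 4 arrays.

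The study selected genes at a ratio of signals of 10 or more, without a test. By the ratio of the means of these 2 nuclei, 60 probes (0.213%) were at least 10 times higher in the Arc and 34 (0.121%) were at least 10 times higher in the DMH. They held 47 and 29 named genes, respectively. Of these probes, 57 and 33 were also called by limma. When only probes measured on all 4 arrays were kept, 11 and 4 remained past the ratio, so most of these ratios involve at least 1 array on which the probe was not well above background.

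The signals of the called probes in the VMH and LH differed between the directions. Of the 261 Arc-higher probes, 234 (89.7%) had their highest mean in the Arc, 23 in the VMH, and 4 in the LH, where 30.1% of all tested probes were highest in the Arc. Of the 338 DMH-higher probes, 111 (32.8%) had their highest mean in the DMH, 164 (48.5%) in the LH, and 63 (18.6%) in the VMH, against 14.9%, 30.1%, and 25% of all tested probes, respectively. Both the VMH and LH arrays lay above both Arc arrays in 246 of the DMH-higher probes (72.8%), where the share among all tested probes was 16.3%. For the Arc-higher probes, the VMH and LH arrays all lay above both DMH arrays in 38 (14.6%), against 9.74% of all tested probes. The probes were chosen by the same Arc and DMH arrays that enter these counts, so the shares are a description with no test.

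Genes of feeding and of the melanocortin system were higher in the Arc where they passed the test. Of 24 genes listed, 23 were tested, 10 were higher in the Arc, none was higher in the DMH, and the median log2 difference was 0.54 against -0.01 for all genes. Besides *Agrp*, *Npy*, *Pomc*, and *Socs3*, the 10 held the ghrelin receptor, 1 melanocortin receptor, and 3 receptors of neuropeptide Y. *Ghsr*, the ghrelin receptor, had signals of 1122 and 1283 in the Arc and 91.1 and 62.4 in the DMH, at least 12.7-fold higher (adjusted p = 0.00211). *Mc3r*, the melanocortin receptor of arcuate neurons, had 2906 and 2410 in the Arc and 590 and 647 in the DMH (2.10 ± 0.21, adjusted p = 0.00969), while its VMH signals, 2352 and 2568, were as high as in the Arc.

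Among the receptors of neuropeptide Y, *Npy1r* had 2844 and 3064 in the Arc and 797 and 721 in the DMH (1.96 ± 0.20, adjusted p = 0.0099). *Npy2r*, the inhibitory autoreceptor, had 1505 and 1556 in the Arc and 385 and 496 in the DMH (1.81 ± 0.22, adjusted p = 0.0174), although a dimmer probe of it did not pass (adjusted p = 0.16). *Npy5r* was near background, with 274 and 210 in the Arc, at least 2.54-fold higher than in the DMH (adjusted p = 0.00876). *Cartpt*, the precursor of the CART peptides, was high in both nuclei, with 43102 and 44665 in the Arc and 15306 and 14570 in the DMH (1.55 ± 0.19, adjusted p = 0.0188). Of the 13 genes that did not pass, *Ntrk2*, the receptor of BDNF, was among the brightest and had a difference of 0.02 (adjusted p = 0.975). *Bdnf* itself had the lowest difference of the list (-2.69 ± 0.51, adjusted p = 0.0661), with 92.2 and 35.1 in the Arc and 275 and 492 in the DMH. The leptin receptor *Lepr* did not pass either (-0.17, adjusted p = 0.952), and 7 of the 23 differences were negative. Without Arc1, Arc2, DMH1, or DMH2, 7, 7, 8, and 9 of the 10 calls held, and *Cartpt* was lost in each of these fits.

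Genes of kisspeptin neurons and of sex steroid action followed the same direction with 1 exception. Of 13 tested genes, 6 were higher in the Arc and 1 in the DMH, with a median of 1.44. *Esr1*, the estrogen receptor α, had signals of 5000 and 3474 in the Arc and 496 and 498 in the DMH (3.07 ± 0.24, adjusted p = 0.00433), and all 3 of its probes were called. *Greb1*, an estrogen-induced gene, had 442 and 662 in the Arc and 98.5 and 111 in the DMH (2.37 ± 0.26, adjusted p = 0.0125). *Tac2*, neurokinin B, which kisspeptin neurons release, had 13623 and 10678 in the Arc and 3436 and 3601 in the DMH (1.78 ± 0.22, adjusted p = 0.0178). These differences lay between those of the brighter and the dimmer *Kiss1* probe.

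*Nhlh2*, a factor needed for fertility and body weight control, had 1603 and 1450 in the Arc and 252 and 503 in the DMH (2.10 ± 0.35, adjusted p = 0.0465). *Prlr*, the prolactin receptor, had 2648 and 2864 in the Arc and 783 and 1158 in the DMH (1.53 ± 0.25, adjusted p = 0.0461), and its other probe just missed the threshold (0.0509). *Tac1*, the substance P precursor, was the exception, with 894 and 1295 in the Arc and 4124 and 4605 in the DMH (-2.02 ± 0.25, adjusted p = 0.0188). *Esr2*, the estrogen receptor β, had a difference of -0.01 (adjusted p = 0.988). Of the 7 calls, 3, 3, 2, and 5 held without Arc1, Arc2, DMH1, or DMH2, respectively.

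In the dopamine neuron list, 4 of 10 tested genes were higher in the Arc, with a median of 0.80. The dopamine transporter *Slc6a3* had signals of 3264 and 3696 in the Arc and 117 and 176 in the DMH (4.60 ± 0.26, adjusted p = 0.00152). *Gch1*, which makes the cofactor of dopamine synthesis, had 1834 and 1269 in the Arc and 220 and 329 in the DMH (2.50 ± 0.30, adjusted p = 0.0164). The brighter probe of *Nr4a2* and *Prlr* were the other called members. *Th*, the rate-limiting enzyme of dopamine synthesis, was high in both nuclei, with 31311 and 34984 in the Arc and 20687 and 23366 in the DMH (0.59 ± 0.20, adjusted p = 0.264), and *Ddc* and *Slc18a2* did not pass either (0.789 and 0.134). Without Arc1, Arc2, DMH1, or DMH2, 1, 2, 2, and 4 of the 4 calls held.

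The growth hormone axis had 5 of 12 tested genes higher in the Arc and none in the DMH, with a median of 1.34. *Ghrh*, growth hormone-releasing hormone, had signals of 11681 and 15186 in the Arc and 1902 and 3270 in the DMH (2.42 ± 0.31, adjusted p = 0.0223). *Sst*, somatostatin, which opposes it, had 33478 and 33319 in the Arc and 5686 and 9021 in the DMH (2.22 ± 0.27, adjusted p = 0.0178). The somatostatin receptors *Sstr2* (1.85 ± 0.29, adjusted p = 0.0422) and *Sstr1* (1.62 ± 0.24, adjusted p = 0.0328) and *Ghsr* were the other called members. *Sstr3* (adjusted p = 0.277), *Sstr4* (0.06), *Sstr5* (0.278), and the growth hormone receptor *Ghr* (0.153) did not pass. Leaving out Arc1, Arc2, DMH1, or DMH2 kept 2, 1, 2, and 4 of the 5 calls, respectively.

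The list of peptides described for the DMH or the tissue around it showed the opposite direction. Of 24 genes, 19 were tested, 10 were higher in the DMH, none was higher in the Arc, and the median was -2.16. Besides *Hcrt*, *Pmch*, *Crh*, *Trh*, *Npvf*, *Grp*, and *Tac1*, the 10 held *Nts*, *Ppp1r17*, and *Npb*. *Ppp1r17*, a phosphatase inhibitor of DMH neurons, had signals of 1708 and 2238 in the DMH and 466 and 409 in the Arc (-2.16 ± 0.23, adjusted p = 0.0113), and it was lower in the LH, with 184 and 126. *Nts*, neurotensin, had 246 and 427 in the DMH, at least 2.86-fold above the Arc (adjusted p = 0.00595), and 1291 and 1542 in the LH. *Npb*, neuropeptide B, had 445 and 761 in the DMH and 183 and 162 in the Arc (-1.76 ± 0.30, adjusted p = 0.0492). In the LH, *Npb* had 534 and 925, and *Tac1* had 14004 and 13945, above both of its DMH arrays.

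Other peptides of the list were bright without passing. *Gal*, galanin, had 40669 and 43021 in the DMH and 20838 and 24187 in the Arc (-0.90 ± 0.20, adjusted p = 0.107). *Penk*, the enkephalin precursor, had 25470 and 29651 in the DMH and 12772 and 9890 in the Arc (-1.29 ± 0.23, adjusted p = 0.0558). *Cck*, cholecystokinin, had 9030 and 11004 in the DMH, but 2403 on Arc1 and 25.6 on Arc2, and the spread between the Arc arrays left it uncalled (adjusted p = 0.282). For *Nxph4*, a neurexophilin, the dimmer probe was called (at least 4.11-fold higher in the DMH, adjusted p = 0.00119) and the brighter one was not (0.0555). Without Arc1, Arc2, DMH1, or DMH2, 8, 8, 9, and 8 of the 10 calls held.

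Of 9 genes that the study or earlier work connected with the DMH, 5 were higher there. *Npvf*, *Grp*, *Prdm13*, and *Skor1* were picked by the study on these same arrays, so their direction is no independent evidence. *Sulf1*, a sulfatase that edits heparan sulfate, had signals of 2188 and 2509 in the DMH and 938 and 953 in the Arc (-1.31 ± 0.20, adjusted p = 0.0365), and -1.58 ± 0.19 by its dimmer probe (adjusted p = 0.0176), both lost without any 1 array. *Gpr50*, a receptor related to the melatonin receptors, had 2097 and 1774 in the DMH and 927 and 814 in the Arc (-1.15 ± 0.21, adjusted p = 0.0614). *Rorb* (-0.66 ± 0.24, adjusted p = 0.291) and *Pcsk5* (-0.78 ± 0.20, adjusted p = 0.144) did not pass.

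*Nkx2-1*, the NK2 homeobox factor that the study connected with *Prdm13*, had signals of 2173 and 1794 in the DMH and 2533 and 2602 in the Arc (0.38 ± 0.21, adjusted p = 0.487), a difference that turned to -0.10 without scaling. The deacetylase *Sirt1* had 736 and 675 in the DMH and 668 and 579 in the Arc (-0.18 ± 0.20, adjusted p = 0.755). *Nr5a1*, the marker of the VMH, had 688 and 383 in the DMH and 325 and 384 in the Arc, which overlapped (adjusted p = 0.522), against 12163 and 11694 in the VMH. None of these 3 genes passed the test. The 7 probes of *Gapdh*, used as a reference gene, differed by 0.15 to 0.47, or by -0.33 to -0.01 without scaling between arrays, and none was called.

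**Figure D3:**
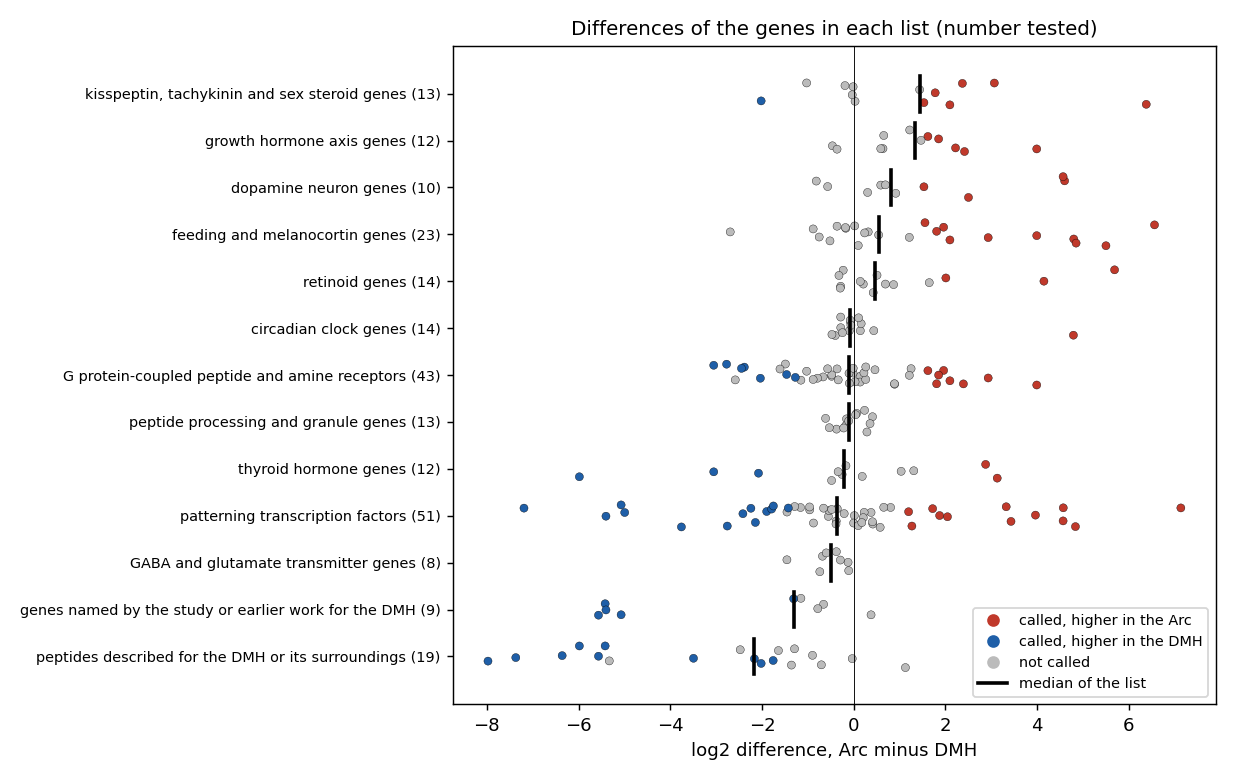
Log2 difference, Arc minus DMH (x axis), of the tested genes of each list, 1 point per gene with 1 probe each, spread vertically for visibility, with the median of the list as a bar and the number tested in brackets. Red points were called higher in the Arc, blue points higher in the DMH, and gray points were not called. Among these 13 lists, which leave out the cell type markers, medians ran from 1.44 for the kisspeptin list to -2.16 for the peptides of the DMH and its surroundings, and only the lists of transcription factors, receptors, thyroid hormone, and kisspeptin held calls in both directions.

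Transcription factors that pattern the hypothalamus were called often and in both directions. Of 66 listed, 51 were tested, 12 were higher in the Arc and 13 were higher in the DMH, with a median of -0.36. Among those in the Arc were *Rax*, the homeobox factor of the optic and hypothalamic field, with 1738 and 1360 in the Arc and 112 and 87.0 in the DMH (3.96 ± 0.24, adjusted p = 0.00186). The related *Six3* had 1611 and 2655 in the Arc and 139 and 265 in the DMH (3.43 ± 0.39, adjusted p = 0.0147). *Six6* had 900 and 1293 in the Arc, at least 11.4-fold above the DMH (adjusted p = 0.0169). *Otp*, which specifies peptide neurons, had 1896 and 1845 in the Arc and 490 and 419 in the DMH (2.05 ± 0.20, adjusted p = 0.00939).

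*Lhx2*, a LIM factor of tanycytes, had 2105 and 1907 in the Arc and 628 and 476 in the DMH (1.87 ± 0.23, adjusted p = 0.0175). *Isl1*, which specifies *Pomc* neurons, had 1228 and 1068 in the Arc and 442 and 511 in the DMH (1.27 ± 0.21, adjusted p = 0.0455). The dimmer *Prdm12* (1.72 ± 0.26, adjusted p = 0.0365) and *Sox14* (at least 2.11-fold, adjusted p = 0.048) were also higher in the Arc, as were *Nr5a2*, *Tbx3*, and *Nr4a2*. *Sox14* was higher in the VMH than in the Arc, with 563 and 762 against 212 and 187.

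On the DMH side, the related homeobox genes *Hmx2* and *Hmx3* were both called. *Hmx2* had 3330 and 2431 in the DMH and 793 and 735 in the Arc (-1.90 ± 0.23, adjusted p = 0.0184), and *Hmx3* had 3185 and 2660 in the DMH and 810 and 876 in the Arc (-1.79 ± 0.21, adjusted p = 0.0154). *Foxb1*, a forkhead factor, had 648 and 910 in the DMH and 94.8 and 34.1 in the Arc, at least 6.79-fold higher in the DMH (adjusted p = 0.0223). *Foxp2* had 727 and 593 in the DMH, at least 4.83-fold above the Arc (adjusted p = 0.0109). *Lef1*, an effector of Wnt signalling, had 403 and 331 in the DMH, at least 3.23-fold above the Arc (adjusted p = 0.00647).

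*Nr2f1*, the close relative of *Nr2f2*, had 2716 and 2872 in the DMH and 472 and 848 in the Arc (-2.14 ± 0.31, adjusted p = 0.031). *Lhx9*, a factor of orexin neurons, had 292 and 479 in the DMH, at least 3.31-fold above the Arc (adjusted p = 0.0202). *Ebf1* (-1.75 ± 0.20, adjusted p = 0.0151) and *Pou3f2* (-1.43 ± 0.21, adjusted p = 0.032) joined *Ebf3*, *Skor1*, *Prdm13*, and *Nr2f2*. Called members of a family stood on the same side for *Six3* and *Six6*, *Hmx2* and *Hmx3*, *Nr2f1* and *Nr2f2*, and *Ebf1* and *Ebf3*, and on opposite sides for *Lhx2* and *Lhx9* and for *Prdm12* and *Prdm13*. *Lhx6*, a LIM factor with a bright signal, did not pass (adjusted p = 0.654). Of the 25 calls, 13, 11, 17, and 17 held without Arc1, Arc2, DMH1, or DMH2, respectively, and 9 held in every such fit.

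Transmitter genes showed no call. All 8 tested genes of the GABA and glutamate list, which holds some astrocyte genes too, had signals that were lower on average in the Arc, with a median of -0.49. *Slc32a1*, the vesicular GABA transporter, had 16094 and 17770 in the Arc and 18143 and 18672 in the DMH (-0.12 ± 0.20, adjusted p = 0.832). *Gad1*, which makes GABA, had a difference of -0.11 ± 0.21 (adjusted p = 0.863). *Slc17a6*, the vesicular glutamate transporter of the hypothalamus, had 1365 and 1618 in the Arc and 3270 and 5079 in the DMH, and missed the threshold (-1.46 ± 0.27, adjusted p = 0.0661).

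Retinoid genes gave 3 calls in the Arc among 14 tested, with a median of 0.47. They were the carrier *Crabp1*, the retinoic acid-degrading enzyme *Cyp26b1*, and the retinol-binding protein *Rbp4*. *Cyp26b1* had 1065 and 1800 in the Arc and 84.6 and 72.0 in the DMH, at least 14.7-fold higher (adjusted p = 0.00286). *Rbp4* had 2300 and 2329 in the Arc and 458 and 720 in the DMH (2.01 ± 0.27, adjusted p = 0.0239), and its call was lost without Arc1, Arc2, or DMH1.

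Thyroid hormone genes were split by role. *Dio2*, the enzyme that activates thyroid hormone, had signals of 1712 and 1130 in the Arc and 209 and 171 in the DMH (2.88 ± 0.27, adjusted p = 0.00787). *Crym*, a binding protein of thyroid hormone, had 1444 and 1408 in the Arc and 150 and 176 in the DMH (3.13 ± 0.20, adjusted p = 0.00221). On the DMH side stood *Trh*, its receptor *Trhr*, and the *Trh*-degrading enzyme *Trhde*. *Trhr* had 4612 and 4136 in the DMH and 407 and 681 in the Arc (-3.05 ± 0.29, adjusted p = 0.00829), and *Trhde* had 719 and 827 in the DMH and 182 and 184 in the Arc (-2.08 ± 0.20, adjusted p = 0.00857). Of the 12 tested genes, 2 were thus higher in the Arc and 3 in the DMH, with a median of -0.21, and *Trhde* was lost without Arc2.

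Among 43 tested receptors for peptides and amines, 8 were higher in the Arc and 7 in the DMH, with a median of -0.09. Besides the receptors named above, the melatonin receptor *Mtnr1a* had 316 and 314 in the Arc, at least 3.33-fold above the DMH (adjusted p = 0.0121). In the DMH, the serotonin receptor *Htr2c* had 3441 and 3763 against 574 and 759 in the Arc (-2.45 ± 0.23, adjusted p = 0.00767), and all 3 of its probes were called. The muscarinic receptors *Chrm2* (at least 2.51-fold, adjusted p = 0.0205) and *Chrm3* (-1.27 ± 0.21, adjusted p = 0.048) and the adrenergic receptor *Adra2a* (-1.46 ± 0.24, adjusted p = 0.0478) were also higher in the DMH. In the LH, *Htr2c* had 7318 and 5378, *Adra2a* 6101 and 6941, and *Chrm2* 418 and 590, each above both DMH arrays. *Chrm3* was lower in the LH, with 534 and 357.

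The neurotensin receptor *Ntsr1* had 699 and 787 in the DMH and 199 and 165 in the Arc (-2.03 ± 0.21, adjusted p = 0.0111), and the galanin receptor *Galr1* reached at least 1.57-fold more in the DMH (adjusted p = 0.0203). Ligand and receptor were both called higher in the DMH for *Trh* and *Trhr* and for *Nts* and *Ntsr1*. In the LH, *Trhr* had 4003 and 4736 and *Ntsr1* had 961 and 979, so neither receptor was particular to the DMH. For other peptides called higher in the DMH, *Hcrtr1* (-0.79), *Npffr1* (0.14), *Grpr* (0.26), *Mchr1* (0.89), and *Crhr1* (1.25) did not pass by their brightest probe. Another probe of *Crhr1* was called higher in the Arc. The probes of *Npy2r*, *Ntsr1*, *Cckbr*, and *Crhr1* differed in their call. Leaving out Arc1, Arc2, DMH1, or DMH2 kept 8, 5, 10, and 12 of the 15 calls, respectively.

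The peptide processing and granule list (13 tested) gave no call, with a median of -0.11. *Scg2*, secretogranin II, had 66575 and 62769 in the Arc and 58454 and 65384 in the DMH (adjusted p = 0.92). The circadian clock list (14 tested) held *Prok2* as its only call, with a median of -0.07. Core clock genes such as *Per1* (-0.06, adjusted p = 0.94) and *Per3* (0.15, adjusted p = 0.827) did not pass.

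Cell type markers were read for both nuclei to see what the dissected tissue held. The arcuate neuron markers were in place, with 9 of 10 higher in the Arc and a summed signal of 256850 to 262700 in the Arc and 44832 to 48431 in the DMH, and 6 of the 9 calls held without any 1 array. Of 7 DMH neuron markers, 5 were higher in the DMH, where the sum was 14271 to 16455 against 1672 to 1997 in the Arc. The 12 pan-neuronal markers gave no call, and their sums overlapped, with 317600 to 335480 in the Arc and 332020 to 332560 in the DMH. Of the 5 DMH markers that were called, *Npvf*, *Grp*, *Prdm13*, and *Skor1* were picked by the study on these arrays and check the label of the DMH with no independence, which leaves *Ppp1r17* called and *Gpr50* (adjusted p = 0.0614) and *Prlh* (0.551) not called. The VMH neuron markers, with sums of 42199 to 47626 in the Arc and 46570 to 52507 in the DMH, overlapped as well, and *Sox14* and *Nptx2* were called in opposite directions, both calls being lost without any 1 array.

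Glial and ependymal markers were less even. Of 20 tested tanycyte markers, 11 were higher in the Arc and 1 (*Pdzph1*) in the DMH, with a median of 1.67 and sums of 40649 to 40697 in the Arc, 16841 to 18121 in the DMH, 19344 to 20962 in the VMH, and 18769 to 22710 in the LH. They included the intermediate filament *Vim*, with 1926 and 1503 in the Arc and 698 and 547 in the DMH (1.46 ± 0.24, adjusted p = 0.0455), and the Wnt inhibitor *Frzb*, with 1219 and 836 in the Arc (adjusted p = 0.0265). *Rax*, *Lhx2*, *Crabp1*, *Dio2*, and *Crym* stand both in this list and in the lists of factors, retinoids, and thyroid hormone, and the part of tanycytes in those differences was not tested. *Crabp1* alone supplied 9879 and 11601 of the Arc sums and 232 and 185 of the DMH sums. *Gpr50*, which was not called, stands also among the DMH neuron markers. Of the 12 tanycyte calls, 8, 6, 10, and 10 held without Arc1, Arc2, DMH1, or DMH2, respectively.

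Of 8 ependymal markers, *Dynlrb2*, *Spag16*, and *Cfap126* were higher in the Arc and *Hdc*, which makes histamine, was higher in the DMH, with 3140 and 3889 against 180 and 479 (-3.57 ± 0.46, adjusted p = 0.0213). Of these 4 calls, 3, 2, 3, and 3 held without Arc1, Arc2, DMH1, or DMH2, respectively. The 14 oligodendrocyte markers were all lower on average in the Arc, with sums of 20848 to 34564 in the Arc and 47615 to 49072 in the DMH and a median of -1.33, but only *Opalin* was called by the probe used, and not without Arc2 or DMH1. Of 12 astrocyte markers, only the connexin *Gjb6* was called, and it was higher in the DMH (-1.36 ± 0.22, adjusted p = 0.0415), a call lost without any 1 array (0.102 to 0.18) and with the replicate block. The part of myelin in the genes higher in the DMH was not tested.

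Microglia (11 tested), endothelial cells (11), oligodendrocyte precursors (8), and mural and leptomeningeal cells (8) gave no call. The last of these were uneven between the Arc arrays, with sums of 23882 on Arc1 and 8086 on Arc2. Of 11 anterior pituitary and pars tuberalis markers, only *Mtnr1a* and *Lhb* were tested. The hormone genes *Tshb*, *Prl*, *Gh*, and *Fshb* were not well above background on any array. *Cga*, the subunit shared by the glycoprotein hormones, had 1425 on Arc1, the array with the higher mural and leptomeningeal sum, and 28.6 on Arc2, 20.8 on DMH1, and 20.3 on DMH2. Among 5 tested markers of the paraventricular nucleus, *Oxt* and *Otp* were higher in the Arc and *Crh* and *Trh* in the DMH, while *Avp*, vasopressin, did not pass (adjusted p = 0.299).

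**Figure D4:**
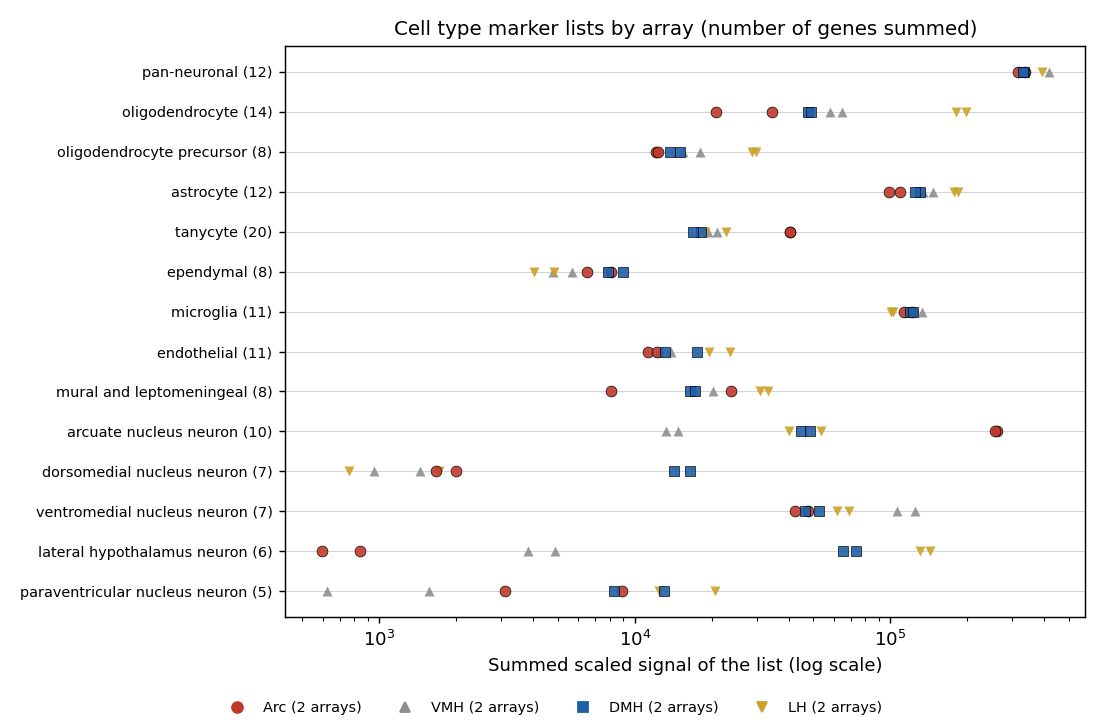
Summed scaled signal (x axis, log scale, without a unit) of each cell type marker list on each array, with the number of genes summed in brackets; an array on which a member was missing is not drawn. The Arc arrays stood above all others for the arcuate neuron and tanycyte lists, the DMH arrays for the DMH neuron list, and the DMH lay between the LH and the VMH for the LH neuron list.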

How the data were processed

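RNA of laser-microdissected nuclei was measured on 1-color Agilent mouse arrays, all 8 on 1 slide and in 1 scan, with replicate 1 of every nucleus in row 1 and replicate 2 in row 2. The authors deposited spot intensities from Agilent Feature Extraction (version 10.7.3.1 per the file headers, 11.5.1.1 per the labels): background-subtracted, spatially detrended, with low values replaced by a minimum, and not scaled between arrays. Cy3 is the dye in the labels and Cy5 that in the methods, and only red-channel values are in the files. The series-wide table repeats these intensities, rounded. Whole-transcriptome amplification came before labelling, and differences in its yield would enter every signal.

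Outlier spots (126 to 161 an array on the Arc and DMH arrays) were dropped and replicate spots averaged before division by the 75th percentile of the array over non-control probes and log2 transformation. Probes whose signal exceeded background on each array of at least 1 nucleus were tested with limma (3.58.1, R 4.3.3) on these 4 arrays, two-sided, with 2 residual and 4.02 prior degrees of freedom and Benjamini-Hochberg adjustment over 28120 probes. The methods state no test for arrays, so the t-test used elsewhere in the study was an alternative. A ratio with an unmeasured nucleus was bounded through the dimmest measured probe of each array. Of 28390 probes with a RefSeq accession, 26762 (94.3%) were named through GRCm38.p6. Probes without one carry no symbol here.

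Named were the 12 genes with the largest difference in each direction among called genes with arrays that did not overlap, the called members of the gene lists with a few of the brightest others, and the genes that the study names for the arrays. Some members that the counts include are not reported here by name. A gene in a list was represented by its brightest probe. The arrays, gene lists, and named genes were chosen with earlier results of these data known. The script was tested on simulated data. Alternatives changed the scaling, background correction, filter, outlier spots, arrays, block, and moderation. The number of arrays and the signal over background limit the precision.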

Additional observations from a re-analysis of the deposited data

How the results depend on the processing

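No change to the processing turned the direction of a called gene for which each setting was run, while *Nkx2-1* and the 7 probes of *Gapdh*, which were not called, turned without scaling. The median of 9 of the 28 lists turned in 1 or more settings, among them the retinoid list (0.47, and -0.01 without scaling) and the ependymal list (0.92, and -0.00229 with probes measured on all 4 arrays). Counting each gene under each setting, 261 calls were lost and 6 gained over the settings that kept every array of the Arc and DMH, and 143 were lost and 1 gained over the fits that left out 1 array. The counts of probes higher in the Arc and in the DMH, 261 and 338, ranged from 166 to 253 and from 112 to 334 when each array was left out, with 166 and 177 without Arc1, 178 and 112 without Arc2, 168 and 264 without DMH1, and 253 and 334 without DMH2. In these fits the lone array of a nucleus is assumed to vary like the other nucleus, and 73 and 78 probes were called in all 4. The other counts were 24 and 23 with no filter on dim probes, 151 and 194 with probes measured on all 4 arrays, 149 and 215 with all 8 arrays in the fit, and 3315 in the DMH without scaling. The methods' t-test called 0 and 0 after Benjamini-Hochberg adjustment and 1415 and 1651 at an unadjusted p under 0.05, where limma had 1804 and 2186. The probes at least 10 times higher, 60 and 34, ranged from 81 to 113 and from 42 to 68 when each array was left out. They were 39 and 60 without scaling, 12 and 10 with normexp background correction, 11 and 4 on all 4 arrays, and 32 and 17 when unmeasured signals were set to the floor of the array. Minimums of 5-fold and 20-fold gave 133 and 124 and 22 and 14, and no filter gave 56 in the DMH. Quantile normalization, the deposited table, outlier spots kept, a trended or robust prior variance, and, chosen after seeing the data, centering on the median stayed within 1.5 times of 261 and 338. The labels do not say that equal replicate numbers share an animal, and the deviations of equally numbered Arc and DMH arrays correlated with r = 0.0434. With the replicate number as a block, which also marks the row of the slide, 191 and 229 probes were called, 174 and 210 of them shared with the fit without the block. Signals near background limit the ratios most.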

Other observations

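Some gene families, of which members such as *Socs3* also stand in the lists, were counted after their values had been seen. Their counts are descriptions with no test of the family. Of all tested genes, 1.36% were higher in the Arc and 1.44% in the DMH. Families with a smaller share of calls were counted too, such as the Kcn potassium channels (2 in the Arc and 4 in the DMH of 62 tested) and the cadherins (0 and 2 of 16). In the SOCS family of cytokine signalling inhibitors, 4 of 7 tested genes were higher in the Arc (*Socs1*, *Socs2*, *Socs3*, and *Cish*), with a median log2 difference of 1.98. *Socs1* had signals of 1443 and 1460 in the Arc and 294 and 340 in the DMH (2.20 ± 0.20, adjusted p = 0.00732 by limma). *Cish* exceeded the DMH at least 3.84-fold (adjusted p = 0.00312), and *Stat5a*, which carries prolactin and growth hormone signals, was the only 1 of 5 tested STAT factors to be called, with 1350 and 1748 in the Arc and 264 and 239 in the DMH (2.61 ± 0.22, adjusted p = 0.00567). *Slc18a3*, the vesicular acetylcholine transporter, had 1650 and 1702 in the Arc and was at least 14.6-fold above the DMH (adjusted p = 0.00123).

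In the DMH, 4 of 10 tested Eph receptors, which guide axons, were higher (*Epha6*, *Epha7*, *Epha8*, and *Ephb1*), with a median of -0.85, against 1.44% of all genes. *Epha8* had 479 and 433 in the DMH and was at least 4.02-fold above the Arc (adjusted p = 0.00122). *Gabrb2*, a subunit of a GABA receptor, was also higher in the DMH (-2.06 ± 0.20, adjusted p = 0.00823). *Crhbp*, the protein that binds *Crh*, had 355 and 342 in the DMH and was at least 3.08-fold above the Arc (adjusted p = 0.00123). Among the secreted semaphorins, *Sema3c* (-2.45 ± 0.26, adjusted p = 0.0114) and *Sema3f* (-2.11 ± 0.19, adjusted p = 0.00732) were higher in the DMH, and the brighter probe of *Sema3a* was higher in the Arc (1.66 ± 0.27, adjusted p = 0.0439).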
